A study of Homo sapiens with 8 samples.

Results

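The 10 integrin genes described here are ITGA2, ITGA4, ITGA5, ITGA6, ITGAV, ITGAL, ITGB1, ITGB2, ITGB5 and ITGB7, that is, integrin subunits other than ITGA2B and ITGB3, which make the platelet fibrinogen receptor. They were chosen by symbol from the 25435 gene symbols of a count table, and all 10 were among the 14898 genes with enough reads to test. The table covers 8 messenger RNA libraries of SET-2, a human cell line from essential thrombocythemia that had transformed to megakaryoblastic leukemia. SET-2 carries an activating JAK2 mutation, so every group shares that background. The study asks what loss of ZRSR2, a component of the minor spliceosome, does in such cells.

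All cells had received a guide RNA from a pLKO5 vector with a GFP marker. In 4 libraries the guide targeted ZRSR2 (genotype ZRSR2 KO), and in 4 it had no target (non-targeting). A library is 1 guide in 1 experiment, with 2 guides per genotype and 2 experiments. In either genotype, experiment 1 gave replicates 1 (guide 1) and 2 (guide 2), while experiment 2 gave replicates 3 (guide 1) and 4 (guide 2). Values below are in the order guide 1, guide 2. Per the labels' protocols, RNA was taken 20 days after transduction for one biological replicate and 25 days after for the other. If the experiment number is the biological replicate number, which is an assumption, experiment 1 is day 20 and experiment 2 is day 25, so that day, batch and time in culture cannot be told apart. All libraries come from 1 cell line and no label says that cells were cloned, so p-values measure the spread between these cultures only.

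Integrins are receptors made of 1 alpha and 1 beta subunit that span the cell membrane and tie the cell to matrix proteins or to other cells. The alpha subunit sets much of the ligand choice, and the short tail of the beta subunit binds talin and kindlin, which switch the receptor on from inside. In blood cells alpha4beta1 binds VCAM-1 and fibronectin and holds progenitors in the marrow, alpha5beta1 binds fibronectin, and alphaLbeta2 (LFA-1) binds the ICAM proteins. The integrin alpha2beta1 is a collagen receptor of megakaryocytes and platelets.

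How much nucleotide sequence the genes share bears on whether short reads can tell them apart. The coding stretch around the GFFKR motif, 5 residues at the inner face of the membrane by which alpha subunits hold their beta partner, is printed here for the 6 alpha genes, with the motif's codons in capitals. The sequences are from the transcripts of GENCODE release 29 on GRCh38, read 5′ to 3′ in the sense of the gene.
ITGA2: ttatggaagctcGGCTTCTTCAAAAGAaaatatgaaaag
ITGA4: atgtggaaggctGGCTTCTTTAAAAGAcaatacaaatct
ITGA5: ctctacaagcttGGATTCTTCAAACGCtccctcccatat
ITGA6: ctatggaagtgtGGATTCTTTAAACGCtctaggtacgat
ITGAV: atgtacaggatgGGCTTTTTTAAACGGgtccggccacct
ITGAL: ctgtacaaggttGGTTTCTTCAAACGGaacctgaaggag

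The 6 alpha genes encode the same 5 residues, and each does so with its own run of codons. The runs of ITGA2 and ITGA4 are nearly the same, as are those of ITGA5 and ITGA6. The 4 beta genes are shown at the membrane-proximal NPxY or NPxF motif of the tail, where talin binds, with its codons in capitals.
ITGB1: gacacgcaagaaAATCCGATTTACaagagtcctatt
ITGB2: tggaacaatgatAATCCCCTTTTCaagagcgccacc
ITGB5: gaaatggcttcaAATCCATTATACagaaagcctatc
ITGB7: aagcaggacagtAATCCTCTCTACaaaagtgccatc

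ITGB2 has phenylalanine at the last position of this motif (NPLF), where ITGB1 (NPIY), ITGB5 and ITGB7 (both NPLY) have tyrosine. Over their whole transcripts, none of the 10 genes shares a stretch of 50 bases with another of the 10. Stretches of that length do occur in other genes. Of the 50-base stretches of ITGB7, 40.7% also lie in ZNF740, a neighbour on the opposite strand, and 15% of those of ITGB1 lie in the transcript AC022149.1. The antisense gene ITGB2-AS1 shares 5.5% of the ITGB2 stretches, and its own level was 0.823 to 2.27 CPM, the count scaled to a common library size. Whether strand was used in counting is not given in the sources used here, so reads from the shared stretches cannot be assigned by sequence alone. ZNF740 had 18114 counts over the 8 libraries against 65334 for ITGB7, and ITGB2-AS1 had 443 against 36000 for ITGB2. ITGAL shared 5.91% of its stretches, mostly with its antisense transcripts AC116348.2 and AC116348.3. The other shares ran from 0% for ITGA4 and ITGB5 to 3.75% for ITGA6.

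Library totals ran from 31106042 to 71521173 expected counts, and 3 counts, a floor for detection that covers counting error only, were worth 0.0428 to 0.0971 CPM. The lowest count of any of the 10 genes was 99, for ITGA2. ZRSR2 RNA averaged 24.8 ± 4.99 CPM (SD, n = 4) in ZRSR2 KO and 39.5 ± 1.34 (SD, n = 4) in non-targeting libraries, and all 4 knockout libraries lay below all 4 controls. Of the hematopoietic markers, 8 of 8 averaged at least 1 CPM, as did 9 of 11 megakaryocyte and platelet markers, while GP1BB had no count and PPBP averaged 0.596 CPM. Erythroid markers were also present (8 of 8), so the cells carry genes of both lineages. T lymphocyte markers (0 of 7 at 1 CPM or more, summed 0.449 to 0.633 CPM) and monocyte and granulocyte markers (0 of 7, summed 0.777 to 1.38 CPM) were near 0.

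Compared per length, as CPM per kilobase of the median protein-coding transcript, ITGA4 was the highest of the 10 genes at a mean of 217 over the 8 libraries (173 to 274). ITGB1, the beta subunit that pairs with alpha2, alpha4, alpha5, alpha6 and alphaV, followed at 77.1 (64.6 to 97.1) CPM per kilobase. ITGB7, the other partner of alpha4, was at 67.5 (56.9 to 83.2), and ITGA5 at 49.6 (40.9 to 59.1). ITGB2 averaged 35 (12.9 to 62.3) and ITGAL, whose protein pairs with beta2, 22.2 (12.7 to 35.9).

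The lower part of the order was ITGB5 at 8.29 (4.81 to 11.9) CPM per kilobase, ITGAV at 3.17 (2.58 to 3.94) and ITGA6 at 1.93 (1.44 to 2.43). ITGA2, a collagen receptor subunit, was last at 0.459 (0.337 to 0.689). The ranges of neighbours overlapped from ITGB1 through ITGB7, ITGA5 and ITGB2 to ITGAL. The ranges of ITGA4 and ITGB1, and of each neighbouring pair from ITGAL down to ITGA2, did not overlap. Dividing by the longest transcript instead gave the same order. The place of ITGB2 depended on the experiment: it was sixth in experiment 1, below ITGAL, at 15 ± 1.79 (SD, n = 4) and the fourth in experiment 2, above ITGA5, at 55 ± 5.59 (SD, n = 4).

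**Figure D1:**
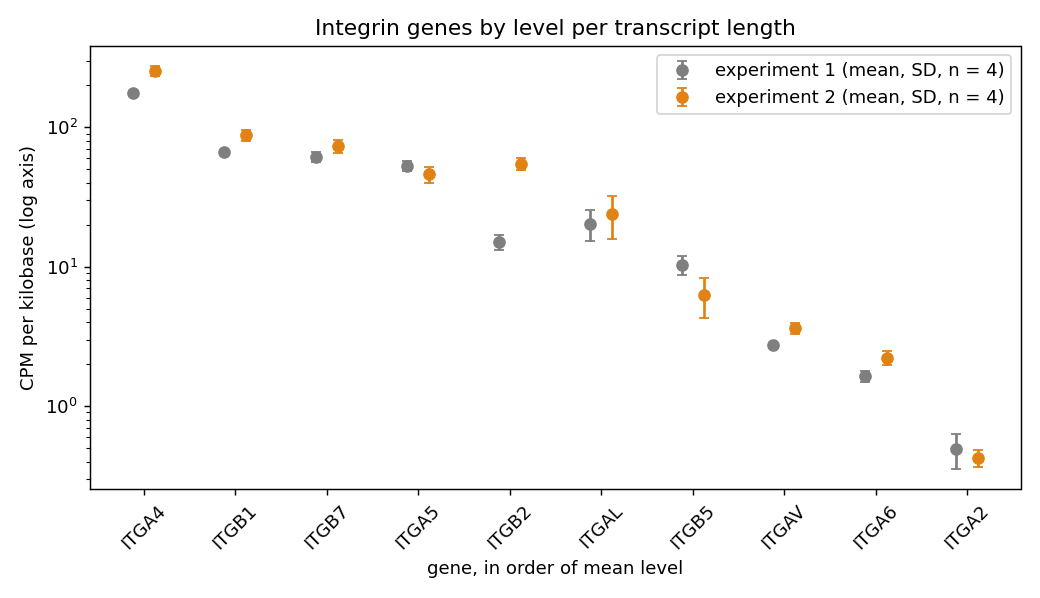
Level of each integrin gene in CPM per kilobase of the median protein-coding transcript (log axis), as the mean and SD of the 4 libraries of each experiment. ITGA4 stands at the top in both experiments (mean 217 over all libraries) and ITGA2 at the bottom (0.459), and ITGB2 moves from 15 to 55.

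The largest differences among the 10 genes lay between the experiments, not between the genotypes. In experiment 2, 6 genes were higher (ITGA4, ITGA6, ITGAV, ITGB1, ITGB2 and ITGB7) and 1 was lower (ITGB5) by edgeR's quasi-likelihood test with an adjusted p under 0.05. ITGA2, ITGA5 and ITGAL did not pass. The comparison is of 1 experiment with 1 other. Its SE and p-values thus measure the spread between libraries within an experiment, not between repeats of an experiment. Across all tested genes 58.2% passed this test, 29.6% higher and 28.6% lower, so passing it is not particular to these genes. The median log2 change was 0.325 for the 10 genes and 0.00349 for all tested genes. Fewer cells of a type and less RNA per cell cannot be told apart in bulk RNA.

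ITGB2, the beta subunit of the leukocyte integrins, changed most. Its level in the ZRSR2 KO libraries was 40.5 and 36.4 CPM in experiment 1 (guides 1 and 2) and 145 and 141 CPM in experiment 2. In the non-targeting libraries it was 48.3 and 44 CPM in experiment 1 and 158 and 175 CPM in experiment 2. All 4 libraries of experiment 2 were thus far above all 4 of experiment 1, with either guide of either genotype. The difference was 3.66-fold (log2 1.87, SE 0.076, edgeR adjusted p 1.3e-07).

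B lymphocyte markers moved with the experiment too: their summed level was 31.6 to 37 CPM in experiment 1 and 61.4 to 76.4 CPM in experiment 2. That list had 3 of 5 genes at 1 CPM or more, with CD79A at 11.1 ± 0.529 and then 39 ± 8.49 CPM (SD, n = 4 each). MS4A1 (CD20), a surface marker of B cells, had no count in any library. Summed erythroid markers were also higher, at 1320 to 1960 CPM in experiment 2 against 1160 to 1310 CPM in experiment 1. Most of that sum was HBG2, which averaged 807 ± 52.1 and 1030 ± 231 CPM (SD, n = 4 each), while the means of HBA1 (42.2 and 33.2 CPM), HBA2 (42.3 and 40.2 CPM) and EPOR (114 and 94.4 CPM) were lower in experiment 2. The part of these genes in the difference between experiments was not tested.

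The other genes of the beta2 family differed in size. ITGAL, the LFA-1 alpha subunit, had 104 and 59.4 CPM in ZRSR2 KO and 106 and 110 CPM in non-targeting libraries of experiment 1. In experiment 2 it had 85.7 and 105 CPM in ZRSR2 KO and 90.2 and 168 CPM in non-targeting libraries. The experiments overlapped, and the difference did not pass (log2 0.24, SE 0.2, 95% interval −0.20 to 0.67, edgeR adjusted p 0.327). It passed with no count filter (adjusted p 0.0197), and its sign turned without non-targeting replicate 4 (log2 −0.025). ITGAM and ITGAX, the myeloid partners of beta2, rose from 161 ± 9.53 to 205 ± 20.4 CPM (SD, n = 4 each, log2 0.35, edgeR adjusted p 0.00212) and from 64.2 ± 8.96 to 100 ± 13 CPM (SD, n = 4 each, log2 0.64, edgeR adjusted p 0.000193).

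**Figure D2:**
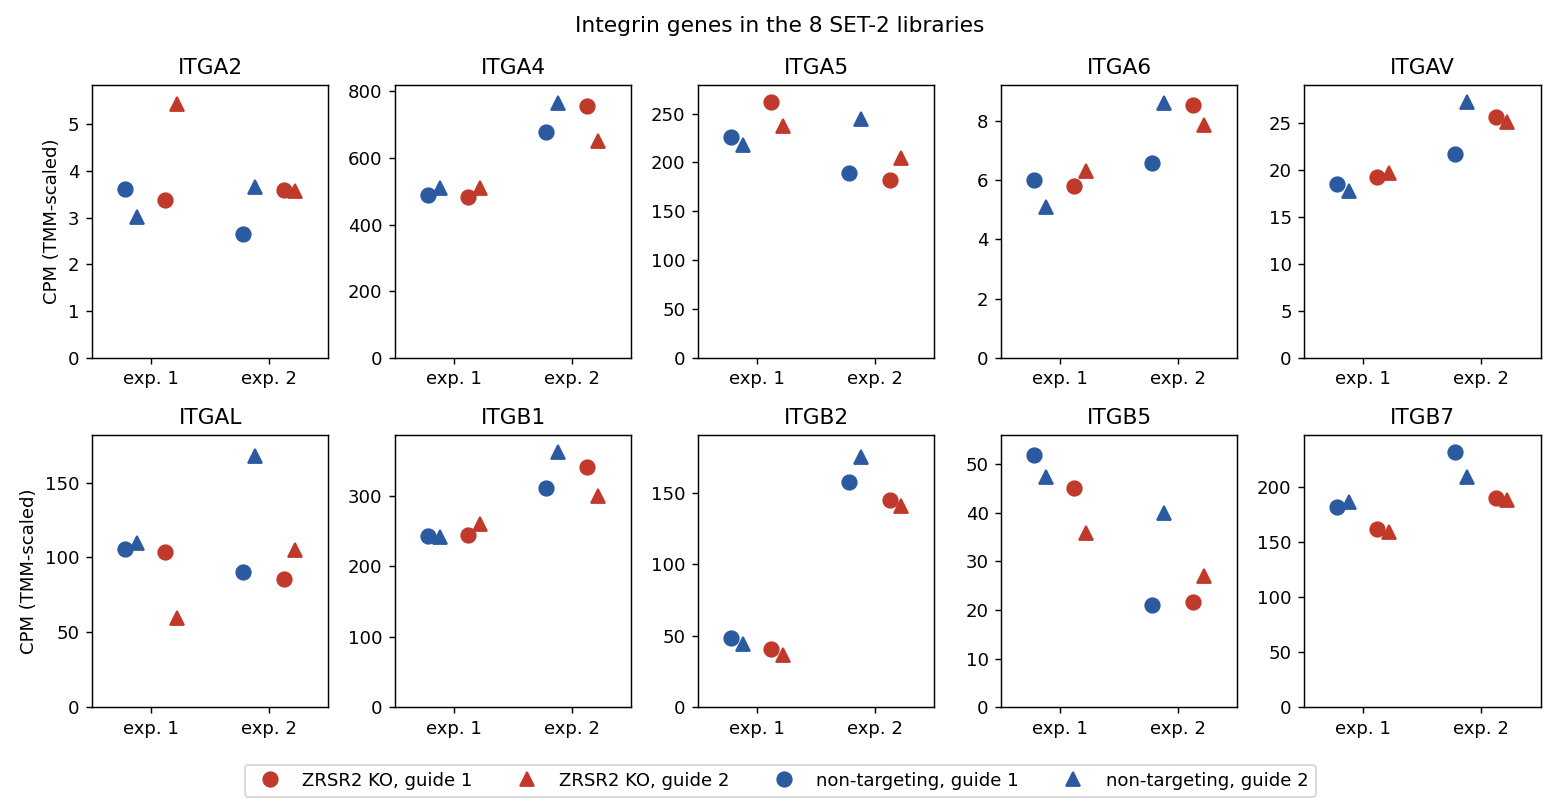
TMM-scaled CPM of each integrin gene in each of the 8 libraries, by experiment (x axis), genotype (colour) and guide (marker shape); every y axis starts at 0. All libraries of experiment 2 lie above those of experiment 1 for ITGB2 (141 to 175 against 36.4 to 48.3 CPM). Over the 8 libraries the knockout and control ranges overlap for every gene, though within experiment 1 they are apart for most genes.

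The subunits of the VCAM-1 and MAdCAM-1 receptors, alpha4beta1 and alpha4beta7, were all higher in experiment 2. ITGA4 stood at 484 and 509 CPM in ZRSR2 KO and at 490 and 510 CPM in non-targeting libraries of experiment 1. In experiment 2 it stood at 756 and 650 CPM in ZRSR2 KO and at 678 and 766 CPM in non-targeting libraries. The 4 libraries of experiment 1 lay close together and all below those of experiment 2, a 1.43-fold difference (log2 0.52, SE 0.073, edgeR adjusted p 0.000147).

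ITGB1 had 244 and 260 CPM in ZRSR2 KO and 242 and 241 CPM in non-targeting libraries of experiment 1. Its values in experiment 2 were 340 and 299 CPM in ZRSR2 KO and 310 and 362 CPM in non-targeting libraries. Again the experiments did not overlap, and the difference was 1.33-fold (log2 0.41, SE 0.075, edgeR adjusted p 0.00083). ITGB7, the mucosal homing subunit, was 162 and 159 CPM in ZRSR2 KO and 182 and 186 CPM in non-targeting libraries of experiment 1, against 190 and 188 CPM and 232 and 209 CPM in experiment 2. It was the smallest difference that passed, 1.19-fold (log2 0.25, SE 0.065, edgeR adjusted p 0.0073), and its 2 experiments did not overlap either, by 186 against 188 CPM.

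For the fibronectin and laminin receptors the picture was mixed. ITGA5, the alpha subunit of the fibronectin receptor, was 262 and 237 CPM in ZRSR2 KO and 226 and 218 CPM in non-targeting libraries of experiment 1, and 182 and 204 CPM and 189 and 244 CPM in experiment 2. The ranges overlapped, and the difference did not pass (log2 −0.20, SE 0.089, 95% interval −0.40 to −0.0067, edgeR adjusted p 0.0713). It passed without non-targeting replicate 4 (log2 −0.31, adjusted p 0.00374) and with no count filter (adjusted p 0.0336).

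ITGA6, the alpha subunit of laminin receptors, had 5.81 and 6.31 CPM in ZRSR2 KO and 5.99 and 5.09 CPM in non-targeting libraries of experiment 1, and 8.52 and 7.87 CPM and 6.59 and 8.6 CPM in experiment 2. The experiments did not overlap, and the difference was 1.36-fold (log2 0.44, SE 0.13, edgeR adjusted p 0.013). Without non-targeting replicate 2 it no longer passed (log2 0.39, adjusted p 0.0729). ITGA2 had 3.37 and 5.42 CPM in ZRSR2 KO and 3.62 and 3.02 CPM in non-targeting libraries of experiment 1, and 3.58 and 3.56 CPM and 2.65 and 3.65 CPM in experiment 2. These ranges overlapped and the difference did not pass (log2 −0.20, SE 0.19, edgeR adjusted p 0.379).

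The subunits of the vitronectin receptor alphaVbeta5 went opposite ways. ITGAV was 19.3 and 19.7 CPM in ZRSR2 KO and 18.5 and 17.8 CPM in non-targeting libraries of experiment 1, and 25.6 and 25.1 CPM and 21.7 and 27.2 CPM in experiment 2, without overlap. It was 1.32-fold higher in experiment 2 (log2 0.40, SE 0.094, edgeR adjusted p 0.00376). ITGB5 was 45.2 and 35.8 CPM in ZRSR2 KO and 51.9 and 47.4 CPM in non-targeting libraries of experiment 1, and 21.6 and 27.1 CPM and 21 and 40 CPM in experiment 2. Non-targeting replicate 4, at 40 CPM, reached into the range of experiment 1, and the other 3 libraries of experiment 2 lay below that range. ITGB5 was 1.65-fold lower in experiment 2 (log2 −0.72, SE 0.17, edgeR adjusted p 0.00446). The 4 libraries of one experiment did not overlap the 4 of the other for 6 of the 10 genes, against 56% of all tested genes.

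None of the 10 integrin genes differed past the threshold between ZRSR2 KO and non-targeting libraries. With genotype alone in the fit, 0 of 10 passed by edgeR, as did 0% of all 14898 genes, and at an unadjusted p under 0.05 there were 0 integrin genes and 89 genes in all. With the experiment as a replicate block, which pairs the libraries of an experiment, edgeR again called 0% of genes, with 3 of the 10 and 690 genes in all at an unadjusted p under 0.05. DESeq2 with that block called 31 genes (0.208%) and 0 of the 10. ZRSR2 itself, at log2 −0.67 with or without the block, did not pass by edgeR (adjusted p 0.275 with the block). It passed by DESeq2 with the block (adjusted p 0.000538). Not passing by edgeR therefore does not show that a gene was unchanged. The median log2 difference was −0.0205 over the 10 genes and −0.00333 over all genes, and 4 of the 10 estimates were above 0 and 6 below.

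The most even differences were those of ITGB2 and ITGB7. Both ZRSR2 KO libraries lay below both controls in each experiment for these 2 genes, and 5.73% of all tested genes had both knockout libraries on the same side in both experiments. With the replicate block the ITGB2 log2 difference was −0.24 (SE 0.069, 95% interval −0.39 to −0.094, edgeR unadjusted p 0.00402, adjusted p 0.694). For ITGB7 it was −0.21 (SE 0.061, 95% interval −0.34 to −0.079, edgeR unadjusted p 0.00448, adjusted p 0.696). Neither passed after adjustment over all genes. Without the block, the ITGB2 estimate was the same (−0.24) with an SE of 0.62, in a fit that leaves the 3.66-fold difference between the experiments within the spread.

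ITGAL had the largest estimate with all 8 libraries, at −0.42 with the replicate block (SE 0.19, 95% interval −0.83 to −0.015, edgeR unadjusted p 0.0431, adjusted p 1). It was −0.20 without non-targeting replicate 4 and −0.28 without ZRSR2 KO replicate 2, so its size rests in part on those libraries. Its means were 88.5 ± 21.3 CPM in ZRSR2 KO and 119 ± 34 CPM in non-targeting libraries (SD, n = 4 each), and the groups overlapped. ITGB5 was at 32.4 ± 10.3 and 40.1 ± 13.6 CPM (SD, n = 4 each), a log2 difference of −0.31 (95% interval −0.66 to 0.05) with the block. DESeq2 with the block called it once, when non-targeting replicate 3, the deepest library, was left out (log2 −0.46, adjusted p 0.0307).

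For ITGA4 and ITGB1 the estimates were close to 0 and the intervals short. With the block the log2 difference was −0.024 (95% interval −0.17 to 0.13) for ITGA4 and −0.005 (95% interval −0.16 to 0.15) for ITGB1, by edgeR. ITGA5 stood at 0.0022 (−0.21 to 0.21), ITGAV at 0.078 (−0.11 to 0.27) and ITGA6 at 0.13 (−0.14 to 0.39). ITGA2, the least expressed of the 10, was at 0.30 (−0.084 to 0.69), and at 0.13 without ZRSR2 KO replicate 2. None of the 10 genes had its 4 knockout libraries all on one side of the 4 controls, a separation that 0.678% of tested genes had.

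**Figure D3:**
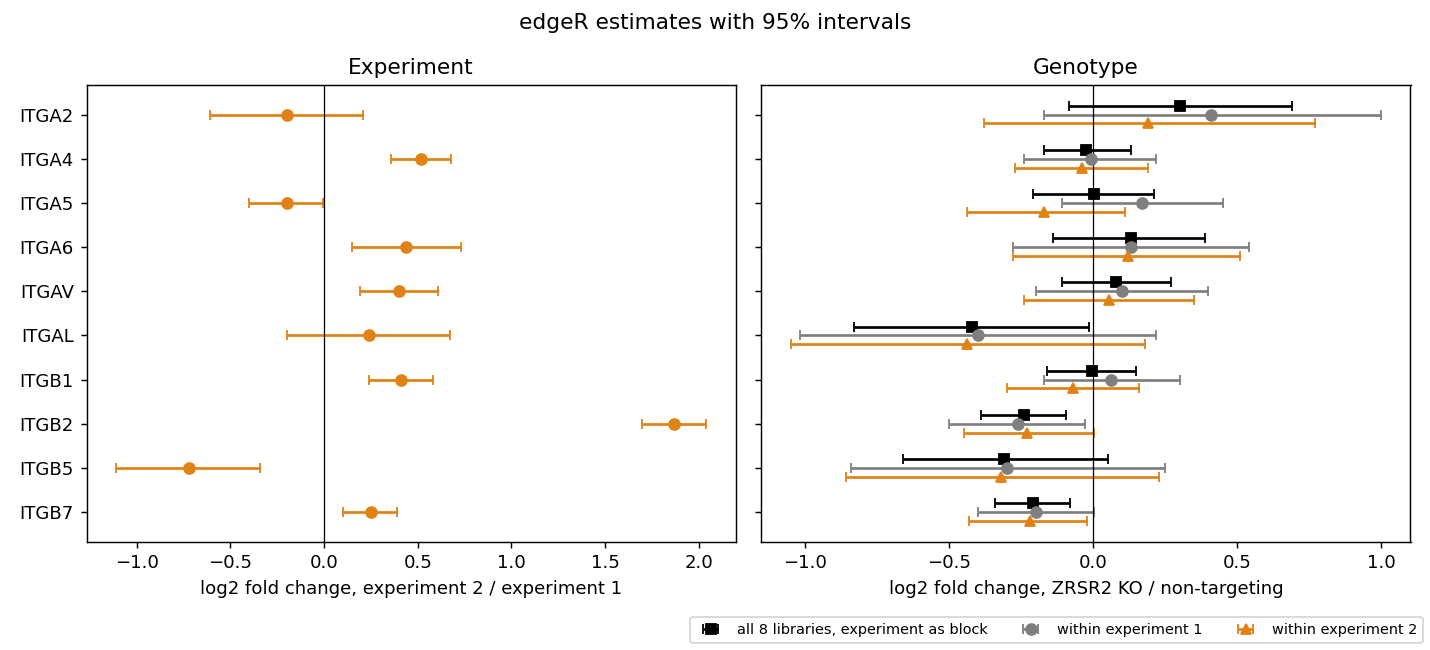
Log2 fold changes of the 10 integrin genes with 95% intervals from edgeR. Left: experiment 2 against experiment 1, where ITGB2 lies at 1.87 and ITGB5 at −0.72. Right: ZRSR2 KO against non-targeting with the experiment as a block (squares) and within experiment 1 (circles) and experiment 2 (triangles), where every estimate lies between −0.44 and 0.41.

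Within each experiment, which has its own controls, edgeR called 0 of the 10 and 0% of all genes, and the test of the difference between the 2 knockout effects also called 0 of the 10 and 0% of all genes. At an unadjusted p under 0.05 there were 305 genes in experiment 1, ITGB2 among them, 645 in experiment 2, ITGB7 among them, and 248, with 0 of the 10, for the difference. ITGB2 was at −0.26 in experiment 1 and −0.23 in experiment 2 on the log2 scale, and ITGB7 at −0.20 and −0.22. ITGAL was at −0.40 and −0.44, and ITGB5 at −0.30 and −0.32. ITGA5 pointed in opposite directions, at 0.17 in experiment 1 and −0.17 in experiment 2. That difference, −0.34 (SE 0.18), did not pass (edgeR unadjusted p 0.0863, adjusted p 1).

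In experiment 1 both knockout libraries lay outside the range of both controls for 7 of the 10 genes, with ITGA5, ITGAV and ITGB1 above and ITGAL, ITGB2, ITGB5 and ITGB7 below, against 36.4% of all tested genes. In experiment 2 this held for ITGB2 and ITGB7 alone (2 of 10), against 23.5% of all tested genes.

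Guides of one genotype did not differ past the threshold for any of the 10 genes, and 0% of all genes passed in either guide comparison by edgeR. At an unadjusted p under 0.05 there were 27 genes between the ZRSR2 guides and 13 between the non-targeting guides, with 0 of the 10 in either. With the replicate block these counts were 376, with 0 of the 10, and 482, with ITGAL among them (unadjusted p 0.043). Between the ZRSR2 guides the largest log2 difference was that of ITGA2, 0.37 higher with guide 2, where replicate 2 alone was high. ZRSR2 itself averaged 28.9 ± 0.792 CPM with guide 1 and 20.8 ± 2.99 CPM with guide 2 (SD, n = 2 each). Between the non-targeting guides, which have no target, ITGAL was 0.50 higher with guide 2 on the log2 scale and ITGB5 0.26. The knockout difference of ITGAL was −0.42. With the replicate block these were 0.48 (edgeR adjusted p 0.93) and 0.39 (edgeR adjusted p 0.93).

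Among 16 other integrin subunits, 13 were tested, and between the experiments 7 were higher, 2 lower and 4 did not pass, where 58.2% of all tested genes passed. ITGA11, a collagen receptor subunit, rose from 2.91 ± 0.389 to 17.3 ± 5.7 CPM, and ITGB4, the partner of alpha6, from 33.8 ± 2.82 to 81.6 ± 10.3 CPM (SD, n = 4 each). ITGA9, a partner of beta1, fell from 65.1 ± 11.6 to 29.1 ± 4.91 CPM (SD, n = 4 each). The log2 changes were 2.52, 1.27 and −1.16, with edgeR adjusted p of 2.19e-06, 6.97e-07 and 6.51e-05. Of the platelet pair, ITGA2B was at 2190 ± 90.1 and 2490 ± 224 CPM (log2 0.19, edgeR adjusted p 0.0323) and ITGB3 at 189 ± 6.92 and 143 ± 40.7 CPM (log2 −0.41, edgeR adjusted p 0.0582) in experiments 1 and 2 (SD, n = 4 each). None of the 13 passed between the genotypes.

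**Figure D4:**
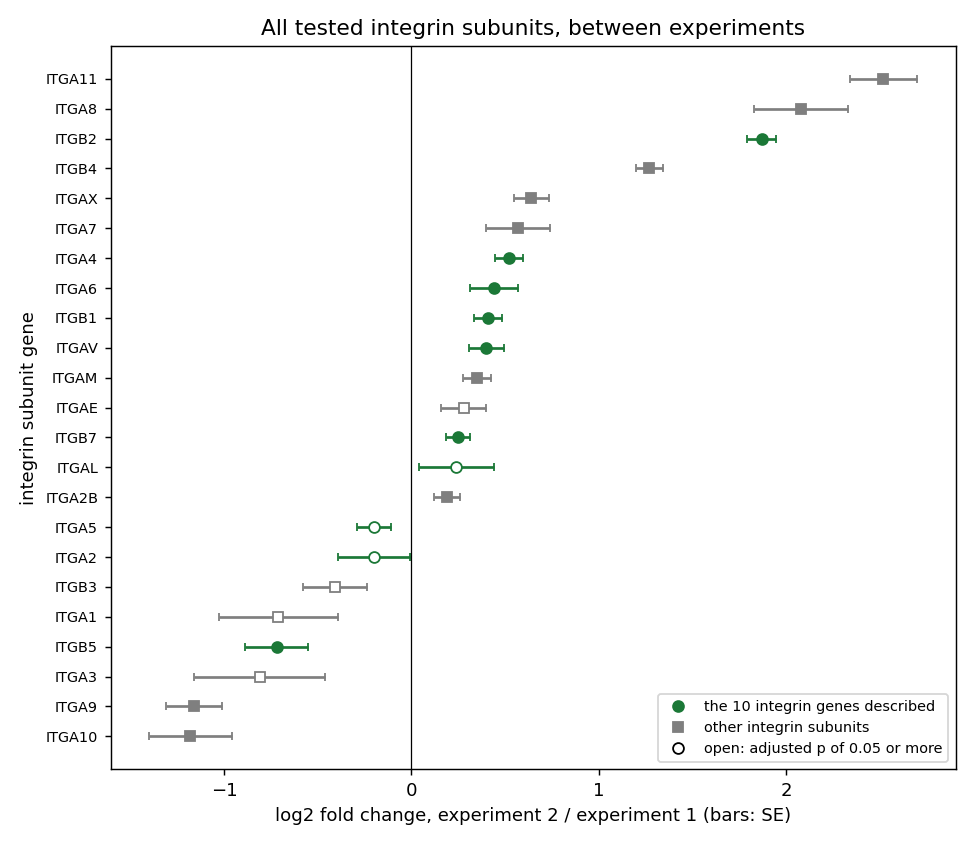
Log2 fold change from experiment 1 to experiment 2 with its SE for all 23 tested integrin subunits, the 10 described here in green circles and the others in grey squares; open symbols did not pass. ITGA11 (2.52), ITGA8 (2.08) and ITGB2 (1.87) lie at the top and ITGA10 (−1.18) and ITGA9 (−1.16) at the bottom. ITGA8 and ITGA10 were low, with means of 0.658 and 2.97 CPM in experiment 1 and 2.82 and 1.32 CPM in experiment 2.

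Among genes for proteins that work with integrins inside the cell, more were lower in experiment 2 than higher. Of 21 such genes tested, which are not all activators, 4 were higher and 13 lower in experiment 2. Among all tested genes 29.6% were higher and 28.6% lower. The median log2 change of the 21 genes was −0.323, against 0.00349 for all genes. ZYX (zyxin, of focal adhesions) fell from 362 ± 21.5 to 166 ± 16.9 CPM and RASGRP2, which activates the talin-recruiting GTPase Rap1, from 212 ± 17.5 to 99.5 ± 22.5 CPM (SD, n = 4 each). BCAR1, an adaptor, fell by 0.91 on the log2 scale, while PXN (paxillin), TLN2 (a talin), APBB1IP (RIAM, which links Rap1 to talin) and PARVB (beta-parvin) rose by 0.83, 0.63, 0.49 and 0.30. Of 6 downstream kinases, PTK2 (focal adhesion kinase) rose by 0.23 and FYN and LYN fell by 0.30 and 0.18 on the log2 scale. Each change named here passed by edgeR, and 0 genes of either list passed between the genotypes.

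Of 19 tested ligands and counter-receptors, 9 were higher and 6 lower in experiment 2, where 29.6% of all tested genes were higher and 28.6% lower. THBS1, a matrix glycoprotein that binds alphaV and beta1 integrins, fell from 224 ± 25.9 to 60.2 ± 9.81 CPM, and SPP1 (osteopontin) from 57 ± 6.31 to 24.9 ± 14.4 CPM (SD, n = 4 each). The laminin gene LAMB1 rose from 41.9 ± 8.14 to 96.3 ± 11.4 CPM and LTBP1, which holds latent TGF-beta in the matrix, from 79.2 ± 15.7 to 163 ± 18.7 CPM (SD, n = 4 each). The laminin genes LAMA5 and LAMC1 rose too, by 0.99 and 0.31 on the log2 scale (edgeR adjusted p 7.15e-06 and 0.00755). FN1 (fibronectin) and VTN (vitronectin) were low, averaging 0.889 and 0.754 CPM over the 8 libraries. VCAM1, a ligand of alpha4beta1, had no count in any library (under the 0.0428 to 0.0971 CPM that 3 counts were worth), and MADCAM1 stayed under the test's filter at 0.047 CPM on average. ICAM1, ICAM2 and ICAM3, ligands of LFA-1, were present at 124, 124 and 118 CPM. Of 8 membrane partners, CD9, CD81 and CD47 rose by 0.82, 0.33 and 0.30 on the log2 scale, CD82 and CD151 fell by 0.32 and 0.26, and 3 did not pass. None of these genes passed between the genotypes by edgeR.

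Among the genes whose pattern over the 8 libraries was most like that of ITGB2 were LMTK3 and ABCA3, with root mean square differences of centred log2 CPM of 0.0938 and 0.14. For ITGAL they were VWA1, RTN4RL2 and SMIM24, at 0.105, 0.136 and 0.15. They were ranked among 11014 genes with a mean of at least 5 CPM.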

How the data were processed

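Messenger RNA was sequenced from 8 SET-2 cultures, with libraries made by a Kapa mRNA kit from total RNA, per the labels' protocols. The authors deposited expected counts per gene symbol. Cutadapt 1.11, RSEM 1.2.30 and the build hg19 are named in the submitters' processing notes. The aligner, annotation and use of strand are not given in the sources used here. RSEM splits ambiguous reads between genes by likelihood, so counts of overlapping genes depend on that step. The values were already whole, so that rounding changed none.

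The tests were edgeR's quasi-likelihood F test (edgeR 4.0.16, R 4.3.3) with TMM factors, filterByExpr on genotype, Benjamini-Hochberg adjustment over 14898 genes and a threshold of 0.05. Experiment, within-experiment and difference tests came from 1 fit with genotype by experiment cells, and guides from 1 fit with 4 guides. DESeq2 1.42.0 and leave-one-out fits were alternatives. The fitting code was tested on simulated data. CPM values use TMM-scaled totals. Lengths and coding sequences came from GENCODE release 29 (the longest open reading frame), a build other than that of the counts, so no gene positions are given. Figures were drawn with matplotlib 3.10.9.

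All 10 genes were named, and from each list of related genes up to 4 with the largest change among those that passed at a mean of 5 CPM or more. ITGAM, ITGA8, ITGA10, ITGA2B, ITGB3, TLN2, APBB1IP, PARVB, CD151, LAMA5, LAMC1, FN1, VTN, the ICAM genes, single markers and genes at 0 were named after their values were seen. The genes and lists were chosen with earlier results of these data known. The pairing by experiment was checked on deviations from the genotype means. These correlated at 0.678 to 0.846 in the 8 knockout and control pairs of the same experiment. In the 8 pairs of different experiments they correlated at −0.816 to −0.709. The deviations of a genotype sum to 0 for each gene, so the negative values largely follow from the positive ones. All 8 libraries differed by more than sampling noise (smallest chi-square per degree of freedom 3.05). A further ZRSR2 guide of the design was not analysed here. Some items are not reported here.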

Additional observations from a re-analysis of the deposited data

Results flagged for a closer look

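In 4 of 42 groups of 4 libraries, 1 library stood apart from the other 3 by Dixon's test at the 95% level. Chance would give about 2 if the 4 libraries of each group were alike but for random spread. Genotype groups hold 2 libraries of each experiment, so that number is only a rough guide. ITGA2 was 5.42 CPM in ZRSR2 KO replicate 2, against 3.37 to 3.58 in the other knockout libraries. In experiment 2 its level of 2.65 CPM in non-targeting replicate 3 was below the 3.56 to 3.65 CPM of the others. ITGAL was 59.4 CPM in ZRSR2 KO replicate 2, against 104 to 110 CPM in the other libraries of experiment 1. Non-targeting replicate 3 held 71521173 expected counts, against 31106042 to 36544665 in the other controls.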

How the results depend on the processing

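Over 59 results and 846 alternatives, 773 values kept their direction and their side of the threshold (counts within 1.5 times), and 38 changed sign. The 7 integrin genes called between experiments were 7 with RLE factors, with a stricter filter and with DESeq2, 9 with no filter, and 6 to 8 with 1 library left out.

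Genes called between genotypes were 0 by edgeR, with or without the replicate block, 4 by DESeq2 and 31 by DESeq2 with the replicate block, and 0 to 119 with 1 library left out, the most without non-targeting replicate 3 in DESeq2 with the block, a setting added once the values were known. Integrin genes called were then 0 to 1. The counts below are of all genes, not of integrin genes alone. Within experiment 1 they were 40 with no filter, 5 by DESeq2 and 0 to 2 with 1 library left out (2 without ZRSR2 KO replicate 1). Within experiment 2 they were 116 with no filter, 13 by DESeq2 and 0 to 154 with 1 library left out (154 without non-targeting replicate 3). The difference between the experiments' knockout effects gave 5 genes with no filter, and the ZRSR2 guides 2 genes by DESeq2 with the replicate block.

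The next ranges are of log2 differences between genotypes with 1 library left out, over fits with and without the replicate block. These differences ran from −0.16 to 0.11 for ITGA4, −0.078 to 0.13 for ITGA5, −0.0046 to 0.22 for ITGAV, −0.11 to 0.13 for ITGB1, −0.56 to 0.13 for ITGB2 and −0.61 to −0.20 for ITGAL. Within experiment 2 they ran from −0.34 to 0.053 for ITGA5, −0.82 to 0.1 for ITGAL and −0.72 to 0.23 for ITGB5, where an arm of 1 library is assumed to vary like the others. Between experiments ITGAL ran from −0.025 to 0.47, and between the non-targeting guides ITGB5 ran from −0.25 to 1.07. The upper ends of the genotype ranges of ITGA4, ITGB1 and ITGB2 came without non-targeting replicate 4. A fit without the block and with 1 library left out has unequal shares of the experiments in the genotypes. Its genotype estimate therefore takes in part of the difference between experiments. With the block, ITGA4 ran from −0.068 to 0.028 between genotypes. Other causes of the ranges were not tested. Depth did not limit detection of the 10 genes, but the small number of libraries limits the precision.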
